A study of Homo sapiens with 8 samples.

Results

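The genes described here encode the ANP32 chaperones (ANP32A, ANP32B, ANP32E), the 2 macroH2A proteins (MACROH2A1, MACROH2A2) and 5 further chaperone proteins (HJURP, DAXX, ATRX, SUPT16H, SSRP1). They include the target of the siRNA and the gene of the histone variant that was mapped. These 10 genes, out of 20037 protein-coding genes, were chosen by name, and each was examined over its RefSeq span (hg38) with 50 kb added on each side, called its window below. HepG2, a human hepatoblastoma line used as a model of liver cells, received either a control siRNA (siControl) or one against ANP32B (siANP32B) by RNAiMax and was taken 3 days later for CUT&RUN, in which an antibody directs a nuclease to chromatin that carries its target. Cryopreserved cells were thawed, incubated with home-made macroH2A1 antibodies or IgG, and digested for 30 min. Of 8 libraries in all, the 4 that used the macroH2A1 antibodies (2 for siControl and 2 for siANP32B) each have a list of broad enriched domains, and the IgG libraries were not analysed here. The authors' deposited table, which tests 4474 regions for a difference between the siRNAs and gives each a false discovery rate (FDR), completes the data. The order of the contrast is unstated there, and a negative log2 fold was read as less macroH2A1 with siANP32B because regions with a positive one lay in domains more often in the siANP32B libraries. Nothing in the labels says whether the 2 libraries of an siRNA came from separate cultures, so p-values measure only the spread between these libraries, which may be technical.

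Histone chaperones escort histones outside the nucleosome and hand them to, or take them from, DNA. ANP32 proteins are small acidic chaperones built on leucine-rich repeats; ANP32A also inhibits the phosphatase PP2A, and ANP32E removes H2A.Z from chromatin. The macroH2A proteins are H2A variants with a large macro domain, often found on broad, weakly transcribed chromatin. HJURP loads the centromeric histone CENPA, DAXX with the remodeller ATRX deposits an H3 variant at heterochromatin, and SUPT16H and SSRP1 form the FACT complex, which opens and rebuilds nucleosomes ahead of polymerases. Domains of macroH2A1 mark where the protein lies and do not measure how much of a gene's product is made, so neither the extent of the ANP32B knockdown nor the identity of the cells was measured by these files.

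The siRNAs are shown because one of them sets the contrast of every comparison below. The labels give 19 bases for siControl and 21 for siANP32B, here 5′ to 3′ with the first 19 bases in capitals, and do not say which strand is the guide.
siControl: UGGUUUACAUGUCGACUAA
siANP32B: UGACUACCGAGAGAGUGUCuu

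The promoters of 4 genes are shown because domain edges fell close to the starts of MACROH2A1, MACROH2A2 and SSRP1 and because ANP32B, the siRNA target, never lay in a domain. They are RefSeq sequences of GRCh38.p14 from 250 bases before to 50 after a start, 5′ to 3′ on the strand of the gene, with each CpG dinucleotide in capitals. RefSeq entries were matched for 7 of the 10 genes (8 entries, since MACROH2A1 has 2; its outer start is the end of the span from which distances are given below). ANP32E, DAXX and ATRX have no entry in the table used.
MACROH2A1, inner start, chr5:135399182-135399481, minus strand: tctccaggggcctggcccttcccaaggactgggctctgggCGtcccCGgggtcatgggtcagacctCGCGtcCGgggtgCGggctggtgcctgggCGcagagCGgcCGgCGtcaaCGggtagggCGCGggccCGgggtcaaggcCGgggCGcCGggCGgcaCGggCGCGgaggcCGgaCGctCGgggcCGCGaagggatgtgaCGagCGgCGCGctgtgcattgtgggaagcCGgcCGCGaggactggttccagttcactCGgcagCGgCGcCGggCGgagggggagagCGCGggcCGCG
MACROH2A1, outer start, chr5:135399838-135400137, minus strand: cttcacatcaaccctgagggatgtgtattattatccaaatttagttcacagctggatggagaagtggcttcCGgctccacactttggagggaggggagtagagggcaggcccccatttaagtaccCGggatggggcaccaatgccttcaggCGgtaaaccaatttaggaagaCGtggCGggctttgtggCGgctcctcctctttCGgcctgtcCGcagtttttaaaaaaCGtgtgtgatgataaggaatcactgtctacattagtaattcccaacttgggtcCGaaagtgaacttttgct
MACROH2A2, chr10:70052596-70052895, plus strand: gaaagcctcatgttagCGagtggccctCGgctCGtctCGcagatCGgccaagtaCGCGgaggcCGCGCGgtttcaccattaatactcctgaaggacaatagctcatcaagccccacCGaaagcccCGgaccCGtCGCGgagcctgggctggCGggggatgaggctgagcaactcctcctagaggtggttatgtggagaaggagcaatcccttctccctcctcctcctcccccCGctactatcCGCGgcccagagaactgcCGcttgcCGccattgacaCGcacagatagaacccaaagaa
SSRP1, chr11:57335843-57336142, minus strand: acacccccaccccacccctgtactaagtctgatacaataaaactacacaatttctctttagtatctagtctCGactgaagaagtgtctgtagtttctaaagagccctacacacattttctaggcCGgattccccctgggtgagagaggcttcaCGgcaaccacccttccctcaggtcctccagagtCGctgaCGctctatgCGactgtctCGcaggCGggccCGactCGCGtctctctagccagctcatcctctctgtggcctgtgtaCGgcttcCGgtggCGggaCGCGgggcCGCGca
ANP32B, chr9:97983091-97983390, plus strand: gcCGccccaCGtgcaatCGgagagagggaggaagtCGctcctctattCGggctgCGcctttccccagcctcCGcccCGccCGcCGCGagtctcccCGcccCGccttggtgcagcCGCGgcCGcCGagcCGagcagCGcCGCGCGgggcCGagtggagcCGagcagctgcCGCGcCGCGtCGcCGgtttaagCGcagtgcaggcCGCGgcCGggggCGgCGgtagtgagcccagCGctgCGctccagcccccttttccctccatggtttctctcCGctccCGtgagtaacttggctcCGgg

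CpG content differed widely among these promoters. The inner MACROH2A1 start held 42 CpG dinucleotides and the outer 10, MACROH2A2 held 22, SSRP1 18 and ANP32B 41, against a median of 21 (interquartile range 7 to 31) over 22199 promoters of protein-coding genes. The GC box GGGCGG or its reverse complement was found in 4 of the 8 entries and in 56.3% of all promoters. The ANP32B promoter held 5 matches, the most of the 8 entries. The CCAAT box or its reverse complement was found in 4 of the 8 entries (ANP32A, HJURP, SUPT16H and the outer MACROH2A1 start) and in 34.7% of all promoters, and TATAAA or its reverse complement in none of the 8 and in 9.47% of all. Promoters inside a domain in all 4 libraries had a median of 15 CpG dinucleotides (interquartile range 5 to 29). Those in none had a median of 21 (7 to 31), so the ranges overlapped widely. A match is a string of letters and not a site shown to be bound.

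Domain lists differed between libraries in ways that bear on every gene below. The siControl lists held 8623 and 8116 domains with a median length of 38 and 39 kb, and the siANP32B lists 7530 and 7404 domains of 47 and 48 kb. Domains shorter than 10 kb numbered 274 and 206 with siControl and 95 and 101 with siANP32B, whereas domains over 1 Mb numbered 3 and 1 against 8 and 9. The depth of the libraries is unknown, and the part of depth in these differences was not tested.

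The 10 genes had a macroH2A1 domain in the window, or most of the gene in one, about as often as all protein-coding genes. A domain reached into the window in all 4 libraries for 6 of the 10 genes (ANP32A, MACROH2A1, MACROH2A2, HJURP, DAXX, SSRP1), and 50.8% of all protein-coding genes met the same condition. The gene itself was at least 50% covered in both siControl libraries for 1 gene, DAXX, where the share over all protein-coding genes was 13.7%. ANP32A, ANP32B and ATRX had no domain over the gene in any library, as did 46.9% of protein-coding genes. The median window coverage of the 10 genes was 46.0% and 26.6% in the siControl and 38.9% and 35.5% in the siANP32B libraries. Over all protein-coding genes it was 19.5% and 13.8% against 21.4% and 17.8%. Those differences between the siRNAs were smaller than the gap between the 2 siControl libraries.

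**Figure D1:**
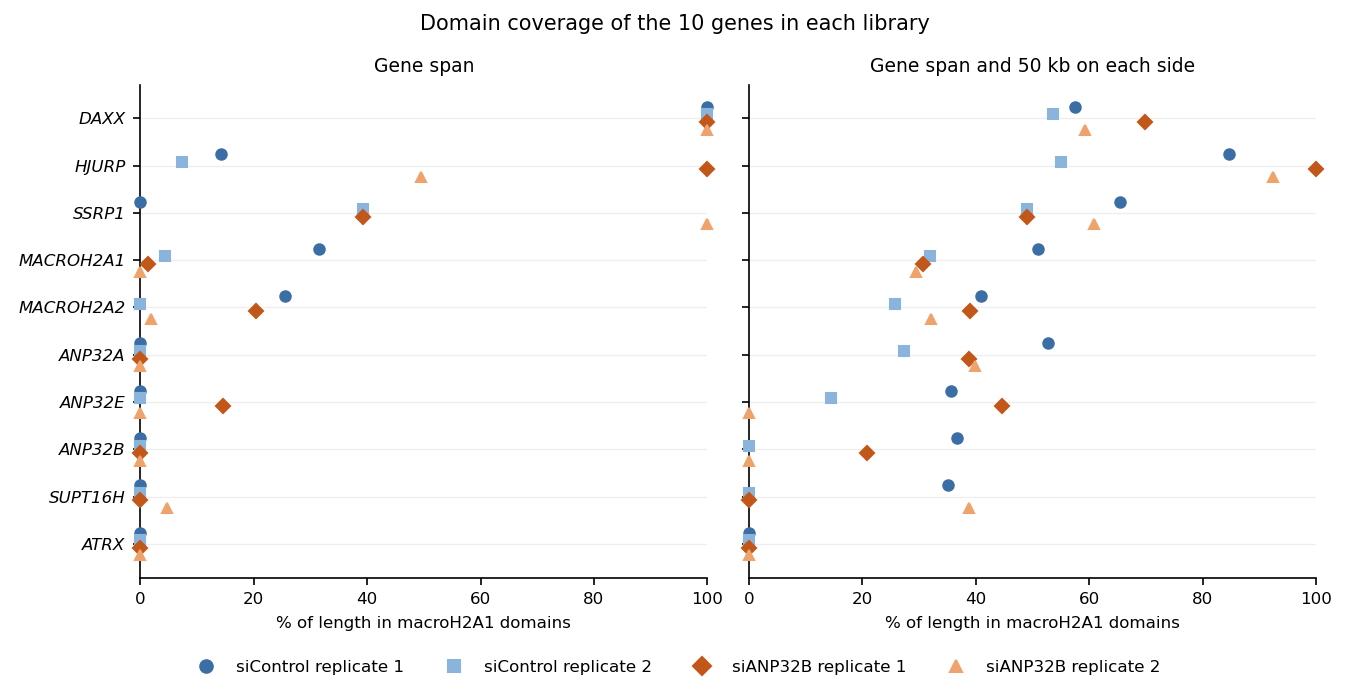
Percent of each gene span (left) and of the window with 50 kb on each side (right) that lay in macroH2A1 domains, with 1 point per library for each of the 10 genes. DAXX sits at 100% in all libraries on the left, HJURP and DAXX have both siANP32B points to the right of both siControl points in the window, and MACROH2A1 has them to the left.

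MACROH2A1 itself carried a long domain immediately upstream of its start in all 4 libraries. The gene occupies chromosome 5 from 135334381 to 135399887 on the minus strand, a span of 65.5 kb. The domain began 4.11 kb upstream of the gene start in siControl replicate 1, 2.89 kb inside the gene in siControl replicate 2, 0.89 kb inside it in siANP32B replicate 1 and 1.11 kb upstream in siANP32B replicate 2. Its far end lay beyond the window, so that 91.8% and 100% of the 50 kb upstream were in domains with siControl and 100% and 97.8% with siANP32B. The 4 edges thus fell within 5 kb of the start, which was the case in all 4 libraries for 3.52% of 15843 protein-coding genes with a known strand.

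This upstream domain was longer in both siANP32B libraries, as was the median domain of the whole lists (47 and 48 kb against 38 and 39 kb). The upstream domain measured 129 and 125 kb with siControl and 176 and 183 kb in siANP32B cells, the extra length lying at the end away from MACROH2A1. In the siControl libraries it overlapped DCANP1 and TIFAB, and in both siANP32B libraries it also reached NEUROG1, a proneural transcription factor gene, and CXCL14, a chemokine gene. In siANP32B replicate 2 it reached SLC25A48 as well. By the deposited score of the caller the domain ranked at the 85.4th and 80.8th percentile of the siControl lists and at the 88.0th and 75.2nd of the siANP32B lists, which overlap.

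Inside the MACROH2A1 gene, domains were short and almost confined to 1 library. Coverage of the gene was 31.5% and 4.41% with siControl and 1.35% and 0% with siANP32B, so the groups did not overlap (17.9% ± 19.1 against 0.677% ± 0.957, SD, n = 2 each; two-sided exact permutation p = 0.333, the smallest that 2 against 2 libraries can give). The 4.41% (siControl replicate 2) and 1.35% (siANP32B replicate 1) came from the upstream domain, which reached 2887 and 887 bases into the gene. The lack of overlap therefore also rests on where that edge was called. Of all protein-coding genes, 2.92% were less covered over the gene in both siANP32B than in both siControl libraries and 8.98% were more covered, and among the 10 genes MACROH2A1 was the 1 lower and HJURP the 1 higher. The value rests on siControl replicate 1, in which 4 separate domains of 17, 10, 2 and 7 kb touched the gene. Without that library the difference was -3.73 percentage points in place of -17.3, and without siControl replicate 2 it was -30.8. These 4 domains ranked between the 87.1st and the 98.6th percentile of their list by score. Window coverage was 51.1% and 32.0% in siControl against 30.7% and 29.5%, a difference of -11.4 points, of -1.81 points without siControl replicate 1 and of -20.9 without siControl replicate 2.

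The tested region nearest to MACROH2A1 lay within the upstream domain and was lower. It spans 135409001 to 135430000 on chromosome 5, starting 9.11 kb from the gene. In the authors' deposited table its log2 fold was -0.66 with an FDR of 0.00923, and 11 of its 11 windows were down, none up. A second region 75.1 kb from the gene, from 135475001 to 135522000, had a log2 fold of -0.63 (FDR 0.00723) in the authors' deposited table, with 14 of 25 windows down. Both were fully inside a domain in all 4 libraries, so the folds were below 0 where all 4 libraries had a domain and the siANP32B domains were the longer ones.

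MACROH2A2 also had a domain upstream of its start, with an edge within 5 kb of it in 3 of the 4 libraries. The gene lies on chromosome 10 from 70052846 to 70112282 on the plus strand. The domain edge nearest the start fell 4.15 kb inside the gene in siControl replicate 1, 2.85 kb upstream in siControl replicate 2, 12.2 kb inside in siANP32B replicate 1 and 1.15 kb inside in siANP32B replicate 2. The 50 kb upstream were covered by 100% and 82.3% with siControl and by 100% in both siANP32B libraries, and the 50 kb downstream by 0% in all 4. Upstream coverage was therefore high, and downstream coverage absent, with either siRNA.

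Over the MACROH2A2 gene, coverage was 25.5% and 0% with siControl and 20.5% and 1.94% with siANP32B, with the groups overlapping. The upstream domain measured 214 kb in siControl replicate 1, 138 and 110 kb in siANP32B cells, and was broken into stretches of 86 and 12 kb in siControl replicate 2. It overlapped COL13A1, a transmembrane collagen gene, in all 4 libraries. A separate domain of 11 kb inside MACROH2A2 was called in siControl replicate 1 alone. Its nearest tested region, 58.8 kb away on the upstream side (69969001 to 69994000), did not pass, with a log2 fold of -0.36 and an FDR of 0.715 in the authors' deposited table.

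**Figure D2:**
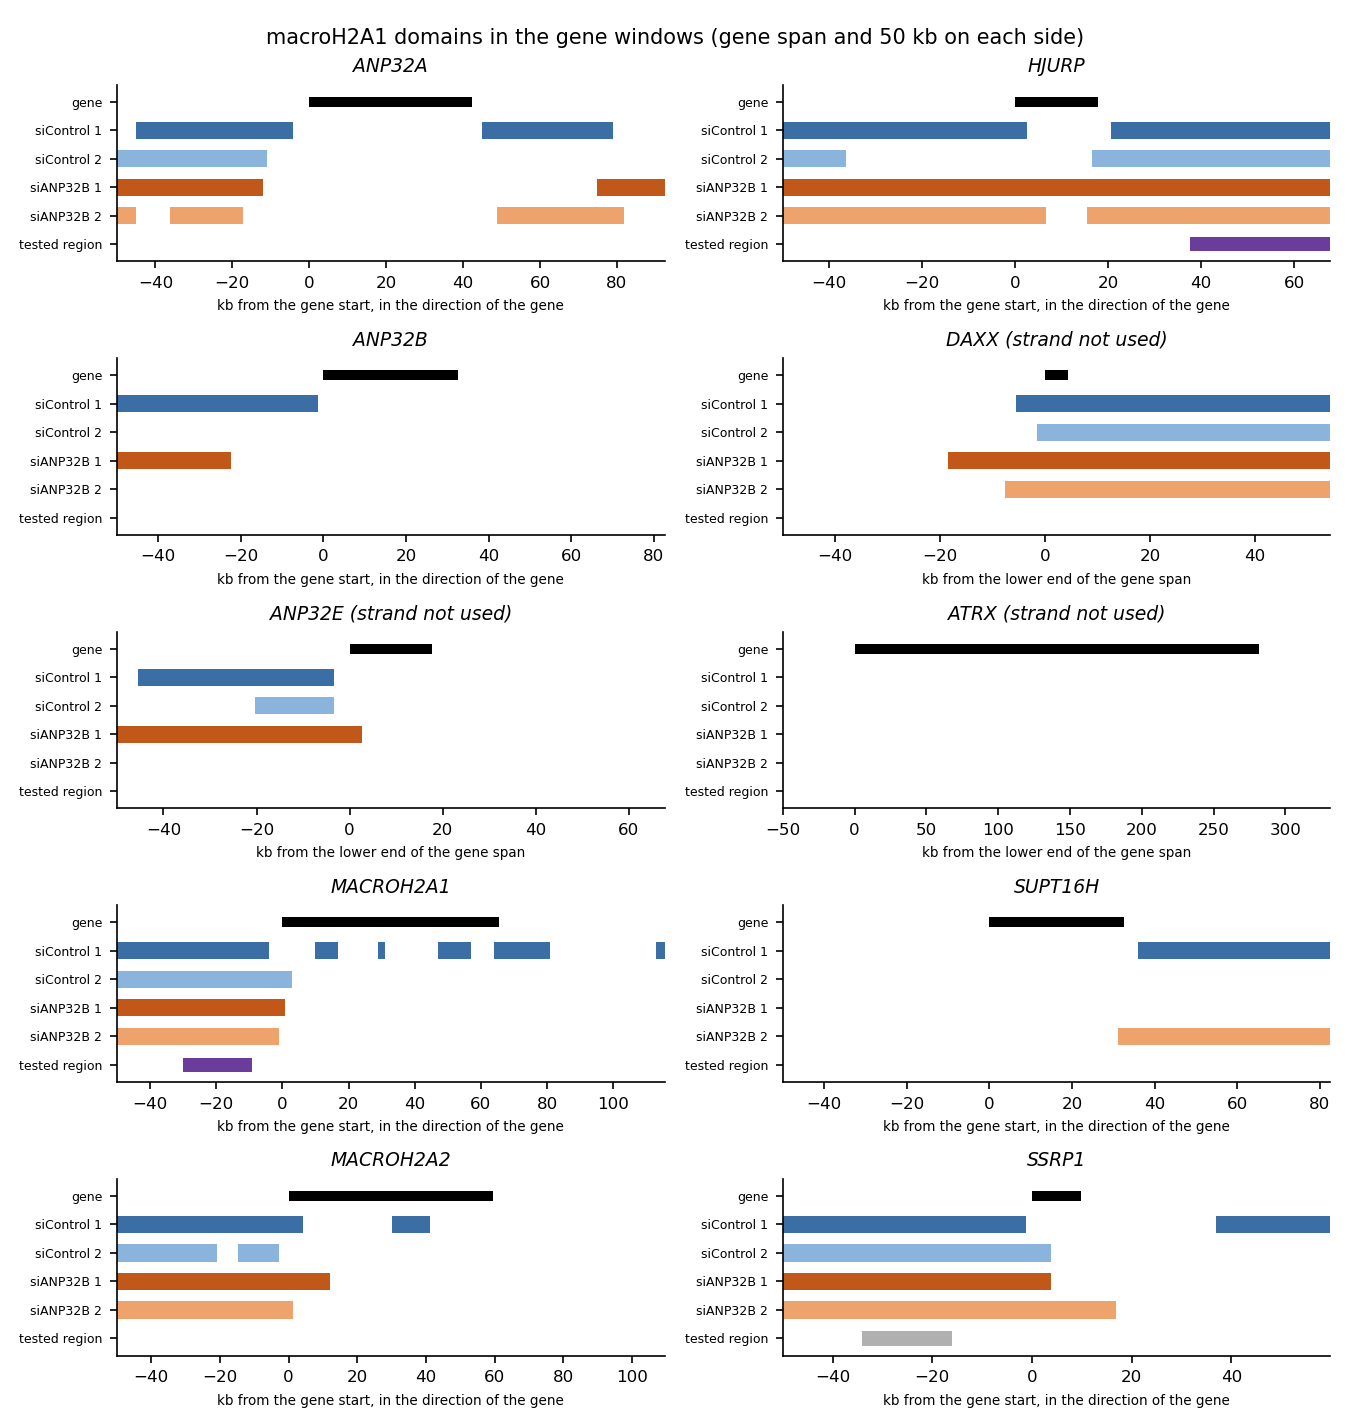
Map of the 10 windows, drawn in kb from the gene start in the direction of the gene for 7 genes and from the lower end of the span for ANP32E, DAXX and ATRX, whose strand was not used. Bars are the gene, the domains of each library clipped to the window, and tested regions of the authors' table in the window (purple, lower; grey, did not pass); domain edges sit near the starts of MACROH2A1, MACROH2A2 and SSRP1, and the ATRX window is empty.

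Among the ANP32 genes, ANP32B had no domain over its body in any library. It lies on chromosome 9 from 97983341 to 98015943 on the plus strand. The nearest domain was 1.34 kb upstream in siControl replicate 1 and 22.3 kb upstream in siANP32B replicate 1, where it spanned 56 and 32 kb over HEMGN, a gene of blood cell development. In the second library of each siRNA no domain lay in the window, and the nearest was 95.3 kb (siControl) and 87.3 kb (siANP32B) away. Window coverage was thus 36.7% and 0% against 20.9% and 0%, a difference of -7.92 points that turned to +10.4 points without siControl replicate 1. The tested region nearest to ANP32B, at 97835001 to 97848000 and 135.3 kb from the gene, was lower in the authors' deposited table, with a log2 fold of -0.74, FDR 0.00695 and 4 of 4 windows down.

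ANP32A was likewise free of domains over the gene, with a domain upstream in all 4 libraries and downstream in 3. On chromosome 15 from 68778535 to 68820895, minus strand, it had 82.0% and 77.8% of the 50 kb upstream in domains with siControl and 75.8% and 47.8% with siANP32B. Both siANP32B values were below both siControl values (79.9% ± 2.98 against 61.8% ± 19.8, SD, n = 2 each; two-sided exact permutation p = 0.333), and 4.75% of protein-coding genes with a known strand were lower in this way. The difference of -18.1 points was -4.11 without siANP32B replicate 2 and -32.1 without siANP32B replicate 1. On the downstream side coverage was 68.0% and 0% against 34.9% and 66.0%, which overlap. Whole-window coverage was 52.7% and 27.3% against 38.9% and 40.0%, and its difference of -0.58 points was within the spread of the siControl libraries. The nearest tested region, 180.1 kb away over NOX5, an NADPH oxidase gene, did not pass in the authors' deposited table (log2 fold -0.35, FDR 0.128).

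ANP32E, on chromosome 1 from 150218417 to 150236112, had a domain on its lower-coordinate side in 3 of the 4 libraries. The domain ended 3.42 kb from the gene in both siControl libraries, with lengths of 42 and 17 kb. In siANP32B replicate 1 it was 58 kb long and covered 14.6% of the gene, and in siANP32B replicate 2 the nearest domain was 462.9 kb away. Window coverage was 35.7% and 14.4% with siControl and 44.7% and 0% with siANP32B, so the siANP32B libraries were the highest and the lowest of the 4. The nearest tested region lay 500.9 kb away over CTSS, the cathepsin S gene, and was lower in the authors' deposited table (log2 fold -0.85, FDR 0.000578, 7 of 7 windows down).

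**Figure D3:**
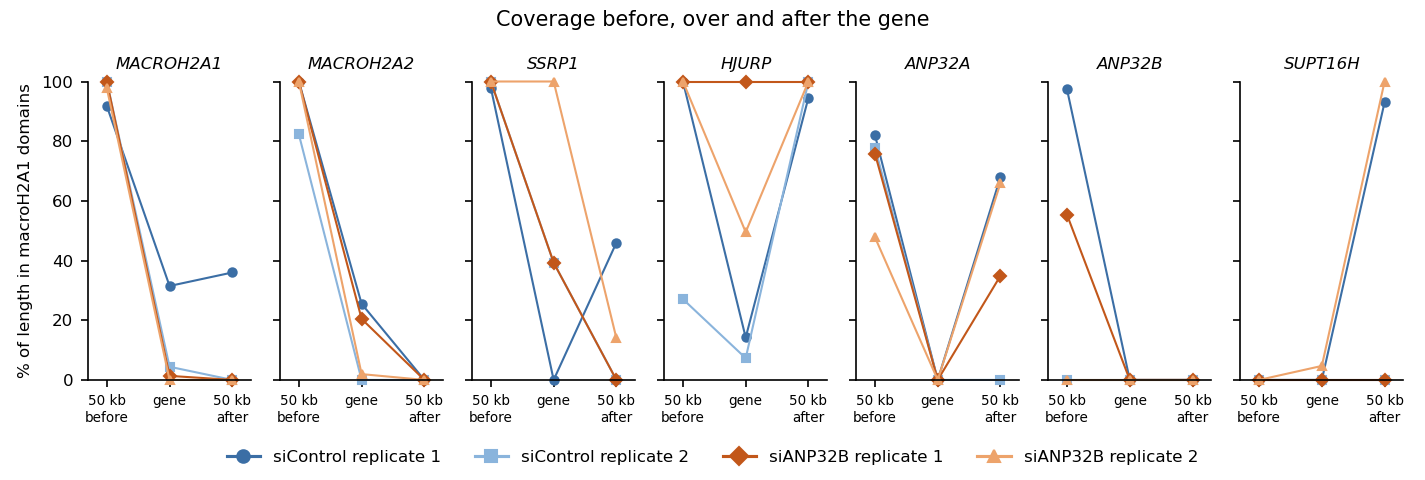
Percent of the 50 kb before the gene, of the gene and of the 50 kb after it in macroH2A1 domains, 1 line per library, for the 7 genes with a strand. Coverage drops from the upstream side to the gene for MACROH2A1, MACROH2A2 and ANP32A in every library. For SSRP1 it drops in every library but siANP32B replicate 2, and for HJURP in every library but siANP32B replicate 1. ANP32B shows a drop in replicate 1 of each siRNA.

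HJURP had more of the gene in domains in both siANP32B libraries than in either siControl library. The gene, on chromosome 2 from 233836702 to 233854535 on the minus strand, was covered by 14.2% and 7.28% with siControl and by 100% and 49.5% with siANP32B (10.7% ± 4.90 against 74.8% ± 35.7, SD, n = 2 each; two-sided exact permutation p = 0.333). The difference was 64.0 points, and 38.8 points without siANP32B replicate 1. Window coverage was 84.7% and 55.0% against 100% and 92.4%, a difference of 26.3 points that was 11.5 points without siControl replicate 2, 41.2 without siControl replicate 1 and 16.2 with a flank of 100 kb. When a common score was required of the domains, the window difference was 24.6 points but the groups overlapped (two-sided exact permutation p = 0.667). Of all protein-coding genes, 18.8% had higher window coverage in both siANP32B than in both siControl libraries and 7.11% had lower coverage. Of the 10 genes 2 were higher (HJURP and DAXX) and 1 lower (MACROH2A1), and a share of 2 in 10 is close to the background.

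HJURP lay in the gap between a pair of long domains. In siControl libraries a domain of 268 and 272 kb lay on the downstream side, over USP40, the UGT1A genes for bilirubin and drug glucuronidation, and MROH2A, and a domain of 85 and 61 kb lay on the upstream side, over TRPM8, a cold-sensing ion channel gene. In siANP32B replicate 1 a single domain of 485 kb spanned both sides and the gene between them. In siANP32B replicate 2 the downstream domain was 278 kb and the upstream one 1106 kb. The gap between the 2 domains was thus closed in 1 siANP32B library and narrower in the other. The domain over UGT1A ranked at the 97.3rd, 97.7th, 96.4th and 98.4th percentile of its list in the order siControl 1, siControl 2, siANP32B 1 and siANP32B 2. The separate upstream domain ranked lower, at the 33.5th (siControl 1), 43.4th (siControl 2) and 51.7th percentile (siANP32B 2). In siANP32B replicate 2 that upstream domain covered 6535 bases of HJURP and the domain over UGT1A covered 2299.

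The tested region nearest to HJURP covers UGT1A1 and its neighbours, from 233710001 to 233817000 and 19.7 kb from the gene. In the authors' deposited table its log2 fold was -0.43 with an FDR of 0.0363, and 20 of its 98 windows were down and none up. It was lower at an FDR of 0.05 but did not pass at 0.01. The UGT1A genes overlap one another, so the region cannot be assigned to 1 of them. Coverage of HJURP and the fold of the neighbouring region therefore differed in direction.

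DAXX was the 1 gene of the list that was inside a domain throughout. Its 4.40 kb span on chromosome 6 (33318558 to 33322959) was 100% covered in the 4 libraries. The domain was longer after siANP32B, at 135 and 108 kb against 83 and 68 kb, as was the median domain of the whole lists. The DAXX domain took in ZBTB22 and SMIM40 in all 4 libraries, and PHF1, a Polycomb-associated protein gene, and CUTA in both siANP32B libraries but in neither siControl library. Window coverage was 57.4% and 53.6% with siControl and 69.9% and 59.3% with siANP32B (55.5% ± 2.71 against 64.6% ± 7.45, SD, n = 2 each; two-sided exact permutation p = 0.333). The difference of 9.10 points was 3.83 without siANP32B replicate 1, 14.4 without siANP32B replicate 2, and 21.4 and 26.3 with flanks of 20 and 100 kb.

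The DAXX domain was among the weakest of each list by the caller's deposited score. Its percentile was 0.394 and 2.86 with siControl and 5.68 and 0.837 with siANP32B. When each library was limited to its 7404 best-scored domains, the DAXX domain was absent from the siControl libraries and the window difference was 64.6 points. The number 7404 is the whole list of siANP32B replicate 2, so domains were removed mainly from the longer siControl lists (8623 and 8116). This setting therefore cannot tell a change at DAXX from a difference in list length. When a common score was required, the DAXX domain was absent from all 4 libraries and the difference was 0. For DAXX the closest tested region, 253.6 kb away over the HLA-DPA1 gene, did not pass in the authors' deposited table (log2 fold +0.04, FDR 0.856).

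ATRX, on the X chromosome from 77504880 to 77786216, had no domain in its window in any library. The nearest domain was a 2 kb call 316.8 kb away in siControl replicate 1, and in the other libraries it was 6958 kb (siControl replicate 2), 7243 kb and 6936 kb (siANP32B) away. Few X-linked genes lay near a domain: 83.3% of 848 protein-coding genes of the X chromosome had none in the window in any library, against 23.8% of all protein-coding genes. The X chromosome held 118 and 90 domains with siControl and 55 and 63 with siANP32B. ATRX was 5613 kb from its nearest tested region, which did not pass in the authors' deposited table (log2 fold -0.53, FDR 0.187).

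The 2 FACT subunit genes differed from each other. SSRP1, on chromosome 11 from 57325988 to 57335892 on the minus strand, had 97.8% and 100% of the 50 kb upstream in domains with siControl and 100% in both siANP32B libraries. The domain edge lay 1.11 kb upstream of the start in siControl replicate 1 and 3.89 kb inside the gene in siControl replicate 2 and siANP32B replicate 1, and in siANP32B replicate 2 the domain ran over the whole gene to 16.9 kb past the start. Coverage of the gene was 0% and 39.3% with siControl and 39.3% and 100% with siANP32B. The groups touched at 39.3%, and the difference of 50.0 points was 19.6 points without siANP32B replicate 2, 80.4 without siANP32B replicate 1 and 30.4 without siControl replicate 1.

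The upstream domain at SSRP1 measured 56 kb in siControl replicate 1 and 136, 131 and 139 kb in the other 3 libraries. It covered P2RX3, an ATP-gated ion channel gene, and PRG3 and PRG2, genes of eosinophil granule proteins, in all 4 libraries. Together with MACROH2A1 and MACROH2A2, SSRP1 had a domain edge within 5 kb of its start in at least 3 of 4 libraries. Of 15843 protein-coding genes 9.60% did so, as did 3 of the 7 genes of the list with a known strand. SSRP1 had its nearest tested region 16.1 kb away over P2RX3 (57352001 to 57370000), which did not pass, with a log2 fold of -0.33 and an FDR of 0.143 in the authors' deposited table.

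SUPT16H, on chromosome 14 from 21351476 to 21384019 on the minus strand, had no domain in the 50 kb upstream in any library. On the downstream side 93.1% and 0% were covered with siControl and 0% and 100% with siANP32B, by domains of 79 and 91 kb over HNRNPC, a gene of an RNA-binding protein, and RPGRIP1, a gene of photoreceptor cilia. The gene itself was covered by 4.69% in siANP32B replicate 2 and by 0% in the other libraries. The domain was present in 1 library of each siRNA, and in the other 2 libraries the nearest lay 127.0 kb (siControl replicate 2) and 147.5 kb (siANP32B replicate 1) away. The nearest tested region, 534.5 kb away over RNASE1, a secreted ribonuclease gene, was higher in the authors' deposited table (log2 fold +0.70, FDR 0.00219, 10 of 10 windows up).

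Across the list, tested regions were near some of the genes and over none of them. A tested region lay in the window of 3 of the 10 genes (MACROH2A1, HJURP and SSRP1), against 30.1% of protein-coding genes. In the authors' deposited table, 4 of the 10 nearest regions were lower and 1 (SUPT16H) was higher at an FDR of 0.05, while 58.4% of all 4474 regions were lower and 3.82% were higher. The median log2 fold of these 10 regions was -0.40 and that of all regions -0.54 in the authors' deposited table. Within 1 Mb of the 10 genes there were 54 regions in the authors' deposited table, of which 27 were lower, 2 higher and 25 did not pass. Counts of lower regions were 6 of 7 near HJURP, 5 of 9 near SSRP1, 5 of 12 near MACROH2A2, 4 of 5 near MACROH2A1, 4 of 10 near ANP32A, 1 of 2 near ANP32B, 1 of 3 near ANP32E, 1 of 4 near SUPT16H and 0 of 2 near DAXX in the authors' deposited table, and ATRX had no region in that distance.

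**Figure D4:**
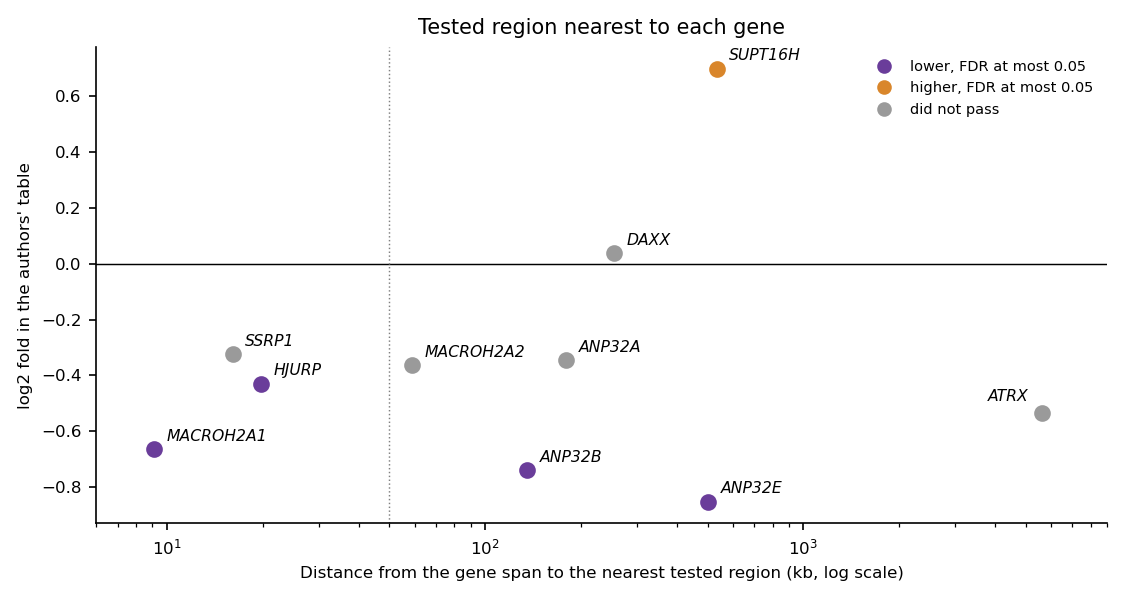
Distance from each gene span to its nearest tested region (log scale, dotted line at 50 kb) against the log2 fold of that region in the authors' deposited table, 1 point per gene, coloured by the call at an FDR of 0.05. MACROH2A1, HJURP and SSRP1 lie left of the dotted line with folds from -0.66 to -0.33, and SUPT16H is the 1 gene whose nearest region was higher.

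Other genes of the pathway were taken from a list of 38 chaperones and loading factors and 14 histone variants. Of the 38 chaperone genes, 20 had a domain in the window in all 4 libraries and 13 in none, 28 had no domain over the gene in any library, and none was at least 50% covered in both siControl libraries. Over all protein-coding genes these shares were 50.8%, 23.8%, 46.9% and 13.7%. Of the 14 variant genes the counts were 6, 3 and 9, and 1 gene, H3-5, a testis-expressed H3 variant, was covered in full in the 4 libraries. Window coverage was higher in both siANP32B than in both siControl libraries for 8 of the 38 chaperone genes and 2 of the 14 variant genes, and lower for 1 (NAP1L4, named after its values were seen) and 0. The 2 variant genes were CENPA and H2AZ2, also named after their values were seen. The shares over all protein-coding genes were 18.8% higher and 7.11% lower. The median window difference was -0.29 points over the 10 genes, 0.66 over the 38 and 0 over the 14, and 0 over all protein-coding genes.

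Tested regions lay in the window of 6 of the 38 and 5 of the 14 genes and over the gene of 1, H2AP, an X-linked gene of the H2A family with a log2 fold of -0.79 and an FDR of 0.0137 in the authors' deposited table. Of all protein-coding genes, 30.1% had a tested region in the window and 9.25% over the gene. H2AP was 100% covered in siControl replicate 2 and 0% in the other 3 libraries. The next 3 genes were chosen after their values were seen. HAT1, a histone acetyltransferase gene, had a higher region 17461 bases away, with a log2 fold of +1.16 (FDR 5.07e-09) in the authors' deposited table, and its window coverage was 25.4% and 24.8% in siControl against 36.7% and 34.4% with siANP32B. APLF, which encodes a DNA repair factor that binds macroH2A, had window coverage of 35.8% and 22.1% against 37.8% and 63.7%, beside a region 8585 bases away with a log2 fold of -0.70 (FDR 0.000813) in the authors' deposited table. CENPA, the histone that HJURP loads, was 100% covered in siANP32B replicate 1 and 0% in the other 3 libraries, with a window coverage of 64.1% and 58.5% against 93.6% and 74.2%. The tested region nearest to CENPA, 31056 bases away, was lower in the authors' deposited table, with a log2 fold of -0.66 (FDR 0.000982).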

How the data were processed

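Broad macroH2A1 domains from 4 CUT&RUN libraries (anti-macroH2A1, 2 per siRNA) and 1 table of tested regions were used. The submitters' processing notes list edgeR, SICER, Bowtie2, deepTools, Trim Galore and SAMtools and the build hg38, and the names of the deposited lists and table carry epic2 and csaw. Versions, settings, scaling between libraries and the control library of the domain calls were not given in the sources used here. Each deposited domain list belongs to 1 library, steps in units of 1 kb and has the score of its caller for every domain. Scores served here to rank or filter domains within a list, except that 1 alternative applied a common score of 81.1 to all 4 lists. Median scores were 88.9 and 97.7 in the siControl lists and 70.1 and 67.5 in the siANP32B lists, so that common score bears unequally on them. Per the file headers, the deposited table gives a p-value and false discovery rate for each region and a fold of a representative window, read as log2; it holds no values per library, and the number of unmapped columns with values per sample was 0. Its sign was taken from the domains: higher regions were at least 50% in a domain for 88.3% and 80.7% in siControl against 99.4% in both siANP32B libraries. The deposited false discovery rates equal a Benjamini-Hochberg adjustment over 4474 regions within 1.11e-15.

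Coverage is the percent of bases of a span in domains, computed with Python 3.11.15, numpy 2.4.6 and pandas 2.3.3 over RefSeq genes of GRCh38.p14, the assembly of hg38; strand came from its promoter table (15843 genes). Coverage and distance were tested on simulated data and recovered for 200 of 200 spans. Groups were compared by exact permutation tests, two-sided. Depth is unknown, so no interval is given. The 10 genes, the chaperone and variant lists and the tests were chosen with earlier results of these data known. Named genes are the 10, genes in a domain or tested region nearest to them within 50 kb, listed genes at least 50% covered in both siControl libraries or overlapping a tested region, and, as stated, genes chosen afterwards; genes over nearest regions farther away were also named after their values were seen. The split into upstream and downstream flanks, distances of domain edges, domain lengths, promoter letters, the 1 Mb distance and the upstream flank of ANP32A without each library were added after the data were seen. Alternatives were a flank of 20 or 100 kb, a common score, equal numbers of domains, joined domains, each library left out, and other thresholds.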

Additional observations from a re-analysis of the deposited data

How the results depend on the processing

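Window coverage differences (siANP32B minus siControl, in percentage points) kept their direction in 58 of 81 combinations of gene and alternative and gene body differences in 36 of 42, leaving out genes with a difference of 0 and the replicate block; 21 and 2 turned sign, and the other 2 and 4 became 0. The turns were in genes whose groups overlap. Left out of the gene body count, DAXX went from 0 to 100 points over the gene with equal numbers of best-scored domains. With a common score the window difference was 15.0 for ANP32A, 10.4 for ANP32B and -0.31 for MACROH2A2. With equal numbers of best-scored domains it was 13.8 for ANP32A, 10.4 for ANP32B and 15.1 for ANP32E. The equal number, 7404, is the whole list of siANP32B replicate 2, so this setting removed domains mainly from the siControl lists. Its values therefore cannot tell a change at a gene from a difference in list length. With a flank of 20 kb the window difference was 18.0 for SSRP1, and with a flank of 100 kb 2.87 for ANP32A, -4.63 for MACROH2A2 and 11.2 for SSRP1. Leaving out each library gave window differences of -13.3 to 12.1 for ANP32A, -26.3 to 10.4 for ANP32B, -25.1 to 19.6 for ANP32E, -5.33 to 9.72 for MACROH2A2, -17.6 to 21.3 for SUPT16H, -10.5 to 5.91 for SSRP1, and a gene body difference of -14.3 to 11.2 for MACROH2A2. The median of the 10 genes' own differences was -0.29 points in the window and 0 over the gene. The library medians over the 10 genes differed by 0.94 points in the window, 12.4 with equal numbers of best-scored domains, -3.42 with a flank of 20 kb and -8.75 to 10.6 with each library left out; over the gene they differed by 4.47 points, by 0 with a common score, and by 0.97 to 7.98 with each library left out. The count of genes with a domain in the window in all 4 libraries fell from 6 to 3 with a common score, and that of genes at least 50% covered in both siControl libraries from 1 to 0 with a common score or equal numbers. The cause was not tested. The number of nearest regions past the threshold was 5, and 4 at FDR 0.01. The libraries share replicate numbers only: over 20037 genes, same-numbered libraries deviated together with a correlation of 0.14 in 2 pairs. A replicate block leaves each difference as it is (26.3 points at HJURP, -11.4 at MACROH2A1) and its exact sign-flip test cannot go below 0.5. The exact tests used for coverage cannot go below 0.333 with 2 libraries per group. Domain calls depend on depth, which is unknown.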
